A study of Mus musculus with 18 samples.

Results

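The respiratory chain is built from 2 genomes, and its messages were compared between them in cultured mouse mast cells. The set holds 108 of the 45777 genes of the deposited table. It was chosen by symbol: the 13 protein-coding genes of mitochondrial DNA, and 95 protein-coding nuclear genes whose symbols begin with Ndufa, Ndufb, Ndufc, Ndufs, Ndufv, Uqcr, Atp5 or Cox followed by a digit from 4 to 8, or read Sdha to Sdhd. The symbol rule also caught 8 genes named Ndufaf, which encode assembly factors of complex I and not subunits of the finished enzyme. They are given apart from the subunits wherever complexes are described.

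The cells were bone marrow-derived mast cells (BMMC), grown from marrow of femurs and tibias. Every mouse carried Sirt6 alleles flanked by loxP sites (Sirt6 flox/flox), also those called WT. KO cells carried in addition LysM-Cre, a Cre recombinase driven by the promoter of the lysozyme M gene, a gene of the myeloid lineage. Deletion in a mast cell culture therefore depends on where that promoter was active. Each genotype was measured at levels 0, 20 and 60. No unit is given. The labels name LPS at 20 and 60, and the title of the series names the IgE receptor FcεRI. Each of the 6 groups held 3 libraries with the numbers 4120, 414 and 6110, which recur in all groups. What a number stands for is not stated, so p-values measure the spread between these libraries, part of which may be technical.

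Messenger RNA was sequenced from total RNA, with 20026054 to 42265435 counts per library. The 9 mast cell markers, among them Kit, Fcer1a, Ms4a2, Cpa3, Tpsb2 and Mcpt4, were all present. Levels per unit of transcript length, scaled to the same total in each library, are given as TPM. The summed TPM of these genes ran from 12759 to 55786 in WT and from 22903 to 56017 in KO. Single markers went both ways. At 0, 20 and 60 Kit had group means of 434, 471 and 336 TPM in WT and 932, 732 and 560 in KO. Those of Tpsb2 were 6118, 7182 and 4098 in WT and 2535, 3430 and 2498 in KO. Mcpt4 was low, at 0.630 to 4.58 TPM in single libraries. Markers of neutrophils and their precursors, also 9, summed to between 0 and 14.7 TPM in WT and between 14.2 and 86.1 in KO, and 7 macrophage and monocyte markers to 29.7 to 243 and 116 to 410. Nearly all of the latter sum was Cd68, with group means of 109 to 132 TPM in WT and 209 to 236 in KO. Lyz2 had 3.02 to 3.10 in WT and 0.0994 to 0.169 in KO, and the remaining 5 had group means of 9.60 or less. Lyz2 is the lysozyme M gene, whose promoter drives the Cre in KO. Its level may differ through the Cre allele, which was not tested, so Lyz2 is not read here as a cell marker. The part of neutrophils, their precursors, macrophages and monocytes in any difference between the genotypes was not tested. In bulk RNA fewer cells of a type and less RNA per cell cannot be told apart. Sirt6 itself was counted at 14.6 ± 2.44 CPM (counts scaled to a common library size) in WT and 16.7 ± 2.66 in KO at 0 (SD, n = 3). These are counts per gene, so they do not show whether the floxed part was lost, and KO below means the libraries labelled KO.

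The chain sits in the inner mitochondrial membrane. Complexes I and II pass electrons from NADH and succinate to coenzyme Q, complex III passes them on to cytochrome c, complex IV hands them to oxygen, and ATP synthase (complex V) uses the resulting proton gradient. Mammalian mitochondrial DNA encodes core membrane subunits of complexes I, III, IV and V, none of complex II, and is copied into long transcripts from both strands that are then cut at the intervening tRNAs. The remaining subunits are transcribed in the nucleus, made in the cytosol and imported.

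Several mitochondrial genes abut or overlap, which bears on how reads were assigned to them. The coding frame of ATP8 ends inside that of ATP6, with 43 shared bases, and ND4L ends inside ND4 with 7. The stretches below are shown for this reason, in the strand of the genes, with 15 bases on either side and the shared bases in capitals. They were read from GENCODE M21 transcripts of GRCm38, and lie on mitochondrial DNA at positions 7912 to 7984 and 10152 to 10188.
ATP8 into ATP6: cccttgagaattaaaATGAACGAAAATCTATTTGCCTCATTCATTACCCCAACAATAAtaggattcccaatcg
ND4L into ND4: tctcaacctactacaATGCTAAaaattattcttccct
In each run the capitals open with the start codon of the downstream gene. A read inside the capitals belongs to both genes, so the split of counts within these 2 pairs is uncertain. ND5 and ND6 overlap on opposite strands, and whether the counting used strand is not given in the sources used here.

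All 13 mitochondrial genes were counted in every library. Their mean levels all exceeded that of every nuclear member, the lowest being ND3 at 1823 TPM and the highest nuclear one Uqcrh at 558, although ND3 lay below single nuclear members in some libraries (446.6 TPM against 659.6 for Ndufa6 in KO 60 of number 4120). Averaged over the 18 libraries, COX1, the catalytic subunit of complex IV, stood at 75291 TPM (19469 to 188176). COX2, which takes electrons from cytochrome c, had a mean of 25859 TPM, and ATP6, the proton channel subunit of complex V, 17906 TPM. CYTB, the mitochondrial subunit of complex III, had 17246 TPM. COX3, the remaining complex IV subunit, followed with 14345 TPM and ATP8 of complex V with 9918. The 7 complex I subunits ran from 11433 TPM for ND1 and 10478 for ND4 through 6989 for ND5, 6926 for ND6, 5677 for ND2 and 4541 for ND4L to 1823 for ND3. Complex IV genes thus summed to a mean of 115495 TPM, complex I genes to 47868, complex V genes to 27824 and CYTB to the 17246 above.

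The number of mitochondrial counts for each nuclear member count differed widely between libraries. In WT with number 4120 this ratio was 106 at level 0, 84.7 at 20 and 13.3 at 60. With number 414 it was 36.5, 11.9 and 113, and with number 6110 it was 15.4, 21.1 and 25.6. The WT libraries therefore showed no common course over the levels, and the highest library was a different number at 0 and at 60.

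In KO the ratio with number 4120 was 15.2 at 0, 7.88 at 20 and 6.09 at 60. With number 414 it was 44.3, 9.997 and 64.4, and with number 6110 it was 6.57, 7.97 and 5.82. In both genotypes number 414 was lowest at 20 and highest at 60. The lowest and highest of the 18 libraries, KO 60 of number 6110 and WT 60 of number 414, were 19.5-fold apart.

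Most of that range came from the mitochondrial side. In KO 60 of number 6110 the 13 genes summed to 40000 CPM and the nuclear members to 6874. In WT 60 of number 414 these sums were 487212 and 4304 CPM. The 13 genes summed to between 31598 CPM (KO 0, number 6110) and 487212 CPM (WT 60, number 414), on library sizes scaled with TMM factors, a 15.4-fold range. The 95 nuclear members summed to between 3895 CPM (WT 0, number 414) and 7070 CPM (KO 20, number 414), a 1.82-fold range. As a share of all counts the 13 genes took 3.78% to 37.6%. Their share was over 20% in 5 libraries: WT 0 and WT 20 of number 4120, and WT 60, KO 0 and KO 60 of number 414. The nuclear members took 0.541% to 0.803% of the counts that did not come from mitochondrial DNA.

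**Figure D1:**
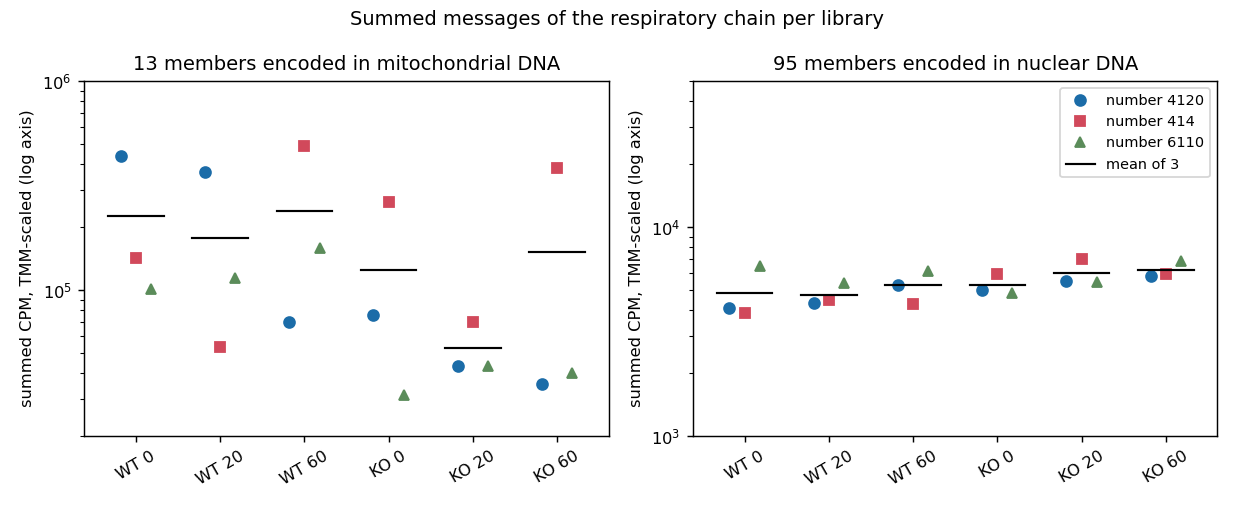
Summed TMM-scaled CPM (log axis) of the 13 mitochondrial members (left) and the 95 nuclear members (right) in each of the 18 libraries, by group; symbols mark the replicate number and the line the mean of 3. The mitochondrial sums spread over 31598 to 487212 CPM while the nuclear sums stay within 3895 to 7070 CPM.

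Between the genotypes the ratio was lower in KO in 8 of the 9 pairs of equal level and number, the exception being number 414 at level 0. The 9 pairs come from 3 numbers, and the levels of a genotype and number may come from the same culture. They are therefore not 9 independent units. At level 20 all 3 KO libraries lay below all 3 WT libraries: the mean log2 ratio was 3.10 ± 0.19 in KO and 4.79 ± 1.46 in WT (SD, n = 3), a difference of −1.70, with exact permutation p = 0.1, two-sided, the smallest that 20 splits of 6 libraries allow. At 0 the groups overlapped, with 4.04 ± 1.38 in KO and 5.29 ± 1.39 in WT (difference −1.25, exact permutation p = 0.4). They overlapped again at 60, with 3.72 ± 1.98 and 5.08 ± 1.58 (difference −1.36, exact permutation p = 0.5). This test does not use the numbers, and within numbers 4120, 414 and 6110 the differences at 60 were −1.13, −0.81 and −2.14. None of these can pass a threshold of 0.05 in this design.

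The tightness of the KO libraries at 20 had no counterpart elsewhere: the SD of the log2 ratio was 0.19 there and 1.38 to 1.98 in the other 5 groups. Without WT 0 of number 4120 the difference at 0 was −0.53, and without KO 0 of number 414 it was −1.97. Without WT 20 of number 4120 the difference at 20 was −0.89, and without WT 60 of number 414 that at 60 was −0.49. Summed over the 3 levels of a genotype and number (a culture in what follows), the ratio was 51.0, 44.1 and 20.7 in WT and 9.63, 33.8 and 6.65 in KO, for 4120, 414 and 6110. The KO culture of number 414 lay between the WT cultures, and the log2 difference was −1.48 with exact permutation p = 0.2.

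Against level 0 the ratio showed no shift that all numbers shared. The mean log2 difference was −0.50 in WT at 20 (exact permutation p = 0.7), −0.94 in KO at 20 (p = 0.4, exact permutation; −0.22 without KO 0 of number 414), −0.21 in WT at 60 and −0.32 in KO at 60 (both exact permutation p = 0.8). In both genotypes numbers 4120 and 414 were lower at 20 than at 0, by log2 differences of −0.33 and −1.61 in WT and −0.95 and −2.15 in KO, while number 6110 was higher by 0.45 and 0.28. At 60 number 4120 was lower than at 0 in both genotypes and number 414 higher in both.

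Inside the mitochondrial genome the proportions of the 13 messages hardly moved with these swings. COX1 made up 44.3% to 56.2% of their counts, with the lowest share in KO 20 of number 6110 and the highest in KO 60 of number 414. CYTB made up 7.34% to 9.94%, COX2 7.04% to 9.13% and ND4 5.46% to 7.53%. ND3, the smallest contributor, varied most in relative terms, 1.93-fold between 0.204% and 0.393%. Over all 13 genes the highest share was 1.27 to 1.93 times the lowest, against the 15.4-fold range of their sum. As a description over the 18 libraries, which share cultures, each gene's log2 CPM correlated with the log2 sum at r of 0.977 to 0.999, where the sum contains the gene itself.

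Both mitochondrial ribosomal RNAs, which are not members, ranged 18.3-fold as a share of counts. The 13 messages had 5.42 to 13.3 counts for each count of the ribosomal RNAs, lowest in KO 60 of number 414 and highest in WT 20 of number 414. Ribosomal RNAs carry only short tails and are poorly captured by selection for messenger RNA, so their level here is not that in the cell.

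**Figure D2:**
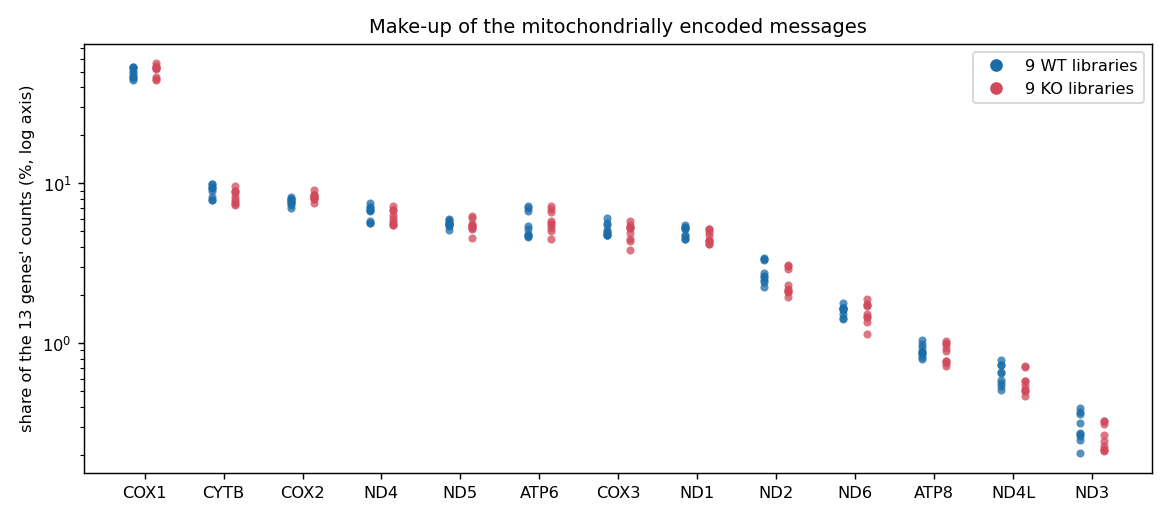
Share of each mitochondrial gene in the counts of all 13 (percent, log axis) in the 9 WT and 9 KO libraries, 1 point per library. COX1 lies between 44.3% and 56.2% in all 18 libraries, and the genes keep nearly the same order in both genotypes.

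No mitochondrial gene passed the test between the genotypes. In edgeR's quasi-likelihood test with Benjamini-Hochberg adjustment over all 17159 genes tested, 0 of 13 were called at 0, 20 or 60, against 0.274%, 0.21% and 0.268% of all genes, and 0 of 13 had an unadjusted p under 0.05 at any level, against 12.1%, 7.79% and 10.7% of all genes. DESeq2 and limma on log2(TPM + 1) also called 0. All 13 log2 fold changes were negative at each level, with a median of −0.93 at 0, −1.89 at 20 and −0.86 at 60, beside medians over all genes of 0.006, −0.020 and 0.023. Because the 13 genes kept their proportions, these are close to 1 measurement taken 13 times.

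COX1 shows the spread behind these values. In WT it was at 220416, 76311 and 44769 CPM at level 0 (numbers 4120, 414 and 6110), at 178778, 28117 and 52411 at 20, and at 33273, 259659 and 73014 at 60. In KO it was at 39375, 139043 and 14594 CPM at 0, at 22747, 37825 and 19193 at 20, and at 19278, 215013 and 17967 at 60. The genotypes overlapped at every level, and in 5 of the 6 groups a single library stood far above the other two: WT 0 and WT 20 of number 4120, and WT 60, KO 0 and KO 60 of number 414. The log2 fold change in KO was −0.82 at 0, −1.70 at 20 and −0.54 at 60, with SE of 1.06, 1.09 and 1.06 and edgeR adjusted p of 0.779, 0.688 and 0.882.

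ND3 of complex I had the most negative value at 20, −2.10 (SE 0.995, edgeR adjusted p = 0.629). The direction itself rested on single libraries at 0 and 60. Without WT 0 of number 4120 the median at 0 was −0.011 and 4 genes had positive values (COX1, COX2, ND5 and ATP8). Without WT 60 of number 414 the median at 60 was 0.10 and 9 genes had positive values, while without KO 60 of number 414 it was −2.70. Over the 3 cultures a genotype, the 13 had a median of −0.98 (range −1.14 to −0.76), with 0 called, 0 at unadjusted p under 0.05 and edgeR adjusted p from 0.483 upward. The culture values of all 13 overlapped between the genotypes.

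The nuclear members had lower means than the mitochondrial ones and varied less. Of the 95, 90 passed the filter on low counts. Their SD of log2 CPM over the 18 libraries had a median of 0.39, from 0.16 for Ndufb11, an accessory subunit of complex I, to 0.69 for Cox6b2, against 0.49 over all genes tested and 1.24 to 1.38 for the mitochondrial members. Per length, the 40 nuclear genes placed in complex I by symbol, Ndufa4 (97.1 TPM) among them, summed to a mean of 3972 TPM, the 17 of complex V to 3394, the 18 of complex IV to 3053, the 8 of complex III to 1270, the 4 of complex II to 287 and the 8 assembly factors to 102.

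Within complex I the highest mean TPM were those of Ndufa6 (504) and Ndufv3 (292), and the lowest among genes tested that of Ndufb4b (6.86), whose near-identical relative Ndufb4 had 160, so reads may be split between them and Ndufb4c. Among the assembly factors Ndufaf8 (34.7 TPM) and Ndufaf3 (17.8) were highest and Ndufaf4 (1.46) lowest. In complex II the iron-sulfur subunit Sdhb had 96.8 TPM, the membrane anchor Sdhc 75.7 and the other anchor Sdhd 54.95. In complex III the hinge protein Uqcrh had 558 TPM and Uqcrb 167, with Uqcrq lowest at 32.4. Complex V was led by Atp5j2 (351) and Atp5h (348), subunits of its membrane and stalk parts, and Atp5g1, 1 of 3 genes for the same c-ring protein, was lowest at 65.8. Its relatives Atp5g2 and Atp5g3 had 314 and 149 TPM.

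Complex IV is the complex with the best known tissue and oxygen-linked isoforms, and the forms of most tissues prevailed here. Cox8a had 549 TPM and Cox4i1 413, while Cox8b had 23 counts in all 18 libraries together, Cox4i2, the form linked to low oxygen, 7, and Cox8c and Cox7b2 none, so none of these 4 was tested. Cox6a1 had a mean of 344 TPM against 3.08 for the heart and skeletal muscle form Cox6a2. Cox7a2 had 109 TPM and its relative Cox7a2l 165, against 11.8 for the muscle form Cox7a1. Cox6b1 had 346 TPM against 15.3 for the testis form Cox6b2. Ndufa4l2, a hypoxia-linked relative of Ndufa4, had 21 counts, all in 6 of the 9 WT libraries, and 0 in KO. That is too few to be tested, and a count of 0 allows up to 0.184 CPM (3 counts) in the smallest scaled library.

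No nuclear member passed edgeR's test between the genotypes at any level either. Of 90, 0 were called at 0, 20 and 60. At an unadjusted p under 0.05 there were 4 (4.44%) at 0, 10 (11.1%) at 20 and 6 (6.67%) at 60, against the 12.1%, 7.79% and 10.7% of all genes given above, and DESeq2 and limma also called 0. Most values were on the positive side: 56 of 90 at 0, 77 at 20 and 65 at 60, with medians of 0.064, 0.33 and 0.19. At 20 the share of positive values was 85.6%, beside 48.3% of all genes. The median at 20 was 0.55 by limma on TPM, where that of all genes was 0.20. The median at 0 was 0.42 without WT 0 of number 6110, whose nuclear sum of 6544 CPM was the highest of the WT libraries, and −0.058 without KO 0 of number 414.

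By complex, the medians at 20 were 0.26 for complex I (33 of 39 positive), 0.26 for complex II (4 of 4), 0.35 for complex III (8 of 8), 0.45 for complex IV (13 of 14) and 0.44 for complex V (16 of 17). The 8 assembly factors had medians of −0.41 at 0, −0.12 at 20 and −0.34 at 60, with 5 of 8 negative each time. Their share of positive values was thus 37.5%, beside 50.5%, 48.3% and 52% of all genes. With only 8 genes, such a count is no result about the assembly factors. None of these complexes had a called member, and members of a complex are not replicates of the genotypes.

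The summed nuclear members tell the same in 1 number per library. At 20 they stood at 5517, 7070 and 5438 CPM in KO and at 4333, 4466 and 5412 in WT (numbers 4120, 414 and 6110). The groups did not overlap, but the nearest libraries, both of number 6110, differed by only 0.007 on the log2 scale. The difference was 0.34 with exact permutation p = 0.1, the smallest possible. At 0 and 60 the groups overlapped, with differences of 0.15 (exact permutation p = 0.6) and 0.25 (exact permutation p = 0.3). Taken instead as a log2 share of the counts that did not come from mitochondrial DNA, the groups overlapped at 0 only. Those differences were 0.15 at 0 (exact permutation p = 0.5), 0.31 at 20 and 0.13 at 60 (both exact permutation p = 0.1). The log2 sums of the mitochondrial members differed by −1.10 at 0, −1.36 at 20 and −1.11 at 60 (exact permutation p of 0.4, 0.2 and 0.5), with overlap at each level. Within numbers the 2 sums did not always differ in opposite directions: number 414 was higher in KO in both at 0 and 20, and number 6110 lower in both at 0.

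**Figure D3:**
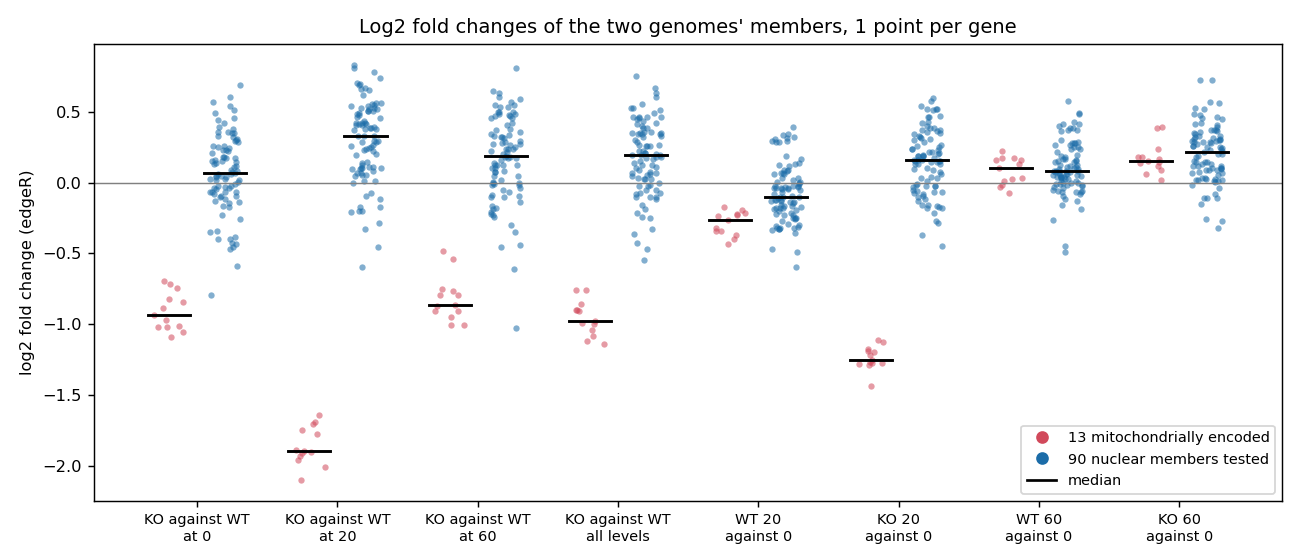
Log2 fold changes from edgeR, 1 point per gene, for the 13 mitochondrial members and the 90 nuclear members tested in 8 comparisons, with the median as a line. The mitochondrial points sit together below 0 in all KO against WT comparisons (medians −0.93, −1.89, −0.86 and −0.98) and the nuclear medians are slightly above 0; no point passed the adjusted threshold.

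Over all levels, 0 of 90 nuclear members were called on the summed cultures, where 26 of 18280 genes (0.142%) were, and 11 (12.2%) had an unadjusted p under 0.05, against 11.6% of all genes. DESeq2 on the same sums called 3 members, all higher in KO, and 3.3% of all genes. These 3 were also those with the smallest p in edgeR.

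Ndufa4, named for complex I but found as a subunit of complex IV, had 22.5, 20.9 and 23.2 CPM in the WT cultures and 30.5, 34.4 and 38.2 in the KO cultures (numbers 4120, 414 and 6110). Each KO culture was above each WT culture, although single libraries overlapped at 0 and at 60. The log2 difference was 0.63 (SE 0.149, edgeR adjusted p = 0.224, DESeq2 adjusted p = 0.0154).

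Cox5a, a nuclear subunit on the matrix side of complex IV, had 27.6, 23.4 and 31.2 CPM in WT and 38.3, 46.0 and 54.1 in KO. The cultures again did not overlap, although single libraries did at 0 (22.2, 12.0 and 32.6 CPM in WT, 21.1, 29.5 and 48.3 in KO). The log2 difference was 0.75 (SE 0.186, edgeR adjusted p = 0.257, DESeq2 adjusted p = 0.028).

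Cox7a2l, which joins complexes III and IV into supercomplexes, had 84.9, 65.9 and 92.8 CPM in the WT cultures and 121, 142 and 124 in KO. At 20 its libraries stood apart too, at 75.2, 85.4 and 81.8 CPM in WT and 146, 183 and 103 in KO. At 0 single libraries of the genotypes overlapped. The log2 difference over all levels was 0.66 (SE 0.182, edgeR adjusted p = 0.283, DESeq2 adjusted p = 0.0459), and 0.83 at 20 (SE 0.266, edgeR adjusted p = 0.483).

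Ndufaf1, an assembly factor of complex I, differed in the other direction, with the smallest p of any member at 60. It had 10.6, 25.4 and 13.3 CPM in WT 60 and 7.88, 8.26 and 7.99 in KO 60. The groups did not overlap, and the WT library of number 414, which also had the highest mitochondrial share of all, was the highest. The log2 fold change was −1.03 (SE 0.294, edgeR adjusted p = 0.237), and −0.57 without that library.

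**Figure D4:**
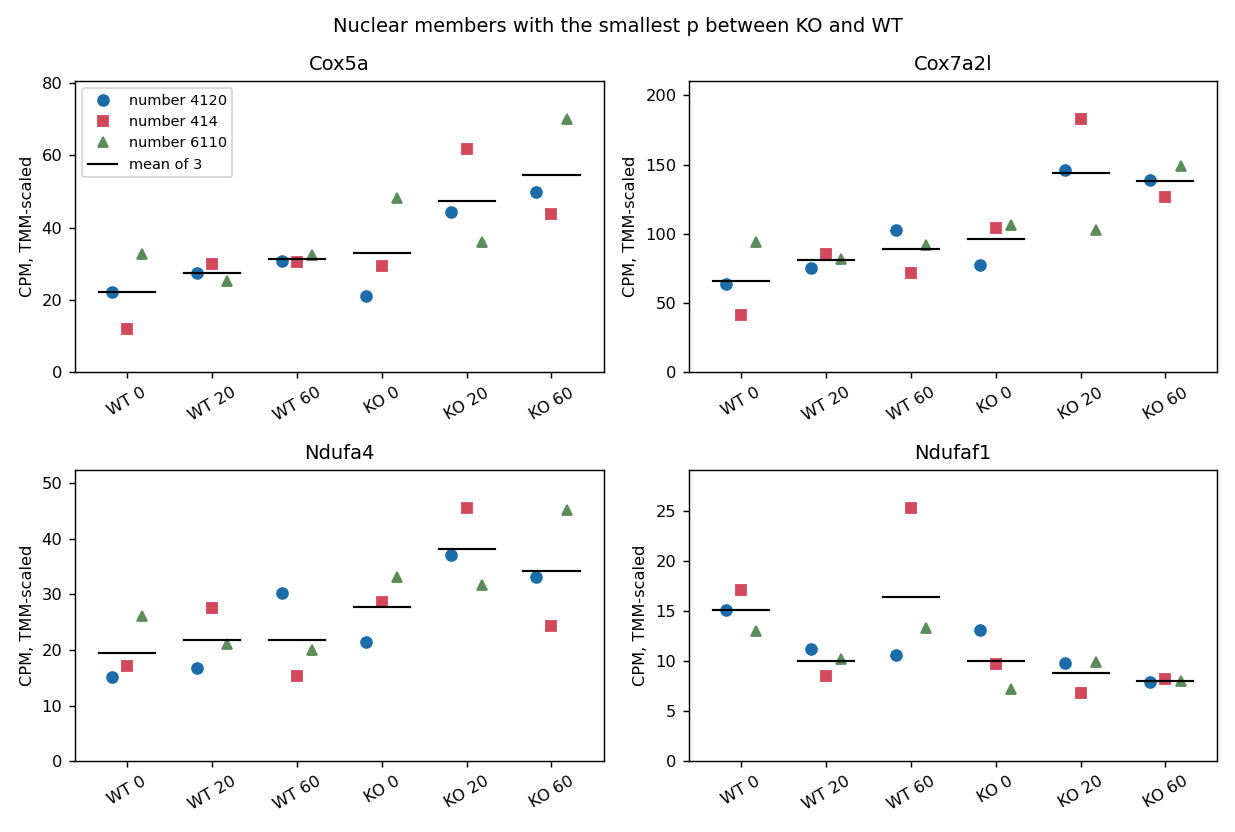
TMM-scaled CPM of Cox5a, Cox7a2l, Ndufa4 and Ndufaf1 in each library by group, with the mean of 3 as a line; axes start at 0. KO cultures summed over levels lie above WT for the first 3 (for example 38.3 to 54.1 against 23.4 to 31.2 CPM for Cox5a) while single libraries overlap at some levels, and Ndufaf1 is highest in WT 60 of number 414 at 25.4 CPM.

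Cultures that do not overlap were no rarer elsewhere. Of the 90 nuclear members 16 (17.8%) had 3 KO cultures all above or all below the 3 WT cultures, 12 of them higher in KO, while 18.6% of all genes tested separated in this way (3405, of which 1559 were higher in KO). A share near the background is no result about the members, and the direction was not tested. Taking all 18 libraries as separate samples and averaging the 3 contrasts called 9 members, 8 higher (Ndufa4, Cox5a, Cox7a2l, Atp5b, Atp5pb, Atp5mpl, Uqcrfs1 and Sdha) and Ndufaf1 lower, but also 10.9% of all genes, and it treats the 3 levels of a culture as independent.

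Other members with the smallest p at single levels stayed further from the threshold. At 0, Uqcrfs1, the Rieske iron-sulfur protein of complex III, had a log2 fold change of 0.61 (edgeR adjusted p = 0.369). Atp5pb, of the stalk of complex V, had 0.69 (edgeR adjusted p = 0.395). At 20 Atp5mpl, a small membrane subunit of complex V, had 0.70 (edgeR adjusted p = 0.556).

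In the edgeR fit without the replicate number, levels 20 and 60 called no member in either genotype. The comparisons within a genotype share its libraries at 0, so they are given side by side and not as repeats. In WT at 20, 0 of 103 members tested were called by edgeR (0.6% of all genes) and 0 had an unadjusted p under 0.05 (5.78% of all genes), with medians of −0.26 for the mitochondrial and −0.098 for the nuclear members. In KO at 20, 0 were called (0.449% of all genes) and 2 had an unadjusted p under 0.05 (3.23% of all genes), Atp5mpl at 0.59 and Cox7a2l at 0.58, with medians of −1.25 and 0.16. Without KO 0 of number 414 the mitochondrial median in KO at 20 was −0.037. DESeq2 and limma called 0 in all 4 comparisons of levels.

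At 60 in WT, 0 were called (0.221% of all genes), with 0 at an unadjusted p under 0.05 (7.94%) and medians of 0.10 and 0.080. In KO at 60, where edgeR called 2.54% of all genes, 0 of the 103 members were called and 1 had an unadjusted p under 0.05 (14.2% of all genes). This was Cox5a, at 0.73 (SE 0.333, edgeR adjusted p = 0.336). The medians were 0.15 for the mitochondrial members, whose mean log2 CPM sum differed by −0.076 in the other direction, and 0.22 for the nuclear members, 80 of 90 being positive. The nuclear median there was 0.0039 on library sizes alone and −0.076 by limma on TPM, where the medians of all genes were −0.22 and −0.24. With the replicate number as a block Cox6b1, a complex IV subunit facing cytochrome c, was called at 0.48 (edgeR adjusted p = 0.0489) in KO at 60. Its CPM was 80.0, 112 and 68.0 in KO 0 and 97.7, 144 and 116 in KO 60 (numbers 4120, 414 and 6110), higher at 60 in each number, and 10.7% of all genes were called in that fit. The differences between the genotypes in the response to 20 and to 60 called 0 members and 0% of all genes, with 0 members at an unadjusted p under 0.05 (0.396% and 1.1% of all genes), and 0 members by DESeq2 and limma.

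The mitochondrial to nuclear ratio differed between the 4 complexes with subunits from both genomes. The ratios sum unequal numbers of genes, and no value that would mean balance was measured. In TPM the mitochondrial to nuclear ratio within complex IV, 3 genes against 18, ran from 7.93 in KO 60 of number 6110 to 205 in WT 60 of number 414. Within complex III, CYTB against 8 genes, it ran from 2.64 to 66.9. For complex I, 7 against 40, it ran from 2.81 to 50.4, and for complex V, 2 against 17, from 2.01 to 36.7. At 20 the KO means were 13.03 ± 2.29 for complex IV, 4.62 ± 0.96 for complex III, 4.31 ± 0.446 for complex I and 2.93 ± 0.247 for complex V (SD, n = 3). The WT means at 20 were 63.4 ± 67.8, 22.9 ± 22.5, 20.0 ± 20.8 and 13.7 ± 13.3, so the SD in WT was close to the mean in each complex. In every library complex IV had the highest of the 4 ratios and complex V the lowest.

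Single nuclear members leaned with or against the mitochondrial sum, as did the rest of the genome. Over the 18 libraries, which share cultures and a common total, the Pearson r of log2 CPM with the log2 mitochondrial sum had a median of −0.15 over the 90 nuclear members, 62.2% being negative. Over the 9248 remaining protein-coding genes that averaged 5 CPM or more the median was −0.16 and 61% were negative. An r beyond 0.7 in either direction was found in 12 of 90 (13.3%) and in 13% of the others. These shares were near those of the other genes. After removal of each culture's mean the median was −0.32 over the nuclear members and −0.16 over the others.

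The members at both extremes were named after their values were seen. Ndufv1, which binds the flavin that takes electrons from NADH, had r = −0.92, and Sdha, the flavin subunit of complex II, −0.79. Ndufa4 had −0.77, Atp5g3 −0.74 and Cox7a2 −0.71. On the other side Ndufaf6 and Ndufs3 had 0.87 each, Ndufaf5 0.83, Ndufaf3 0.78, Ndufv2 0.77, Ndufa10 0.72 and Atp5j2 0.72. Ndufs3, Ndufv2 and Ndufv1 are all core subunits of the arm of complex I that reaches into the matrix. Ndufs3 was at 91.5 CPM in WT 0 of number 4120 and 75.7 in WT 60 of number 414, its 2 highest libraries, and at 40.3 in KO 0 of number 6110, its lowest. Ndufv1 stood at 33.6 and 34.0 in the same WT libraries and at 57.7 in that KO library.

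Leaving out the 2 libraries farthest from the median of the sum (WT 60 of number 414 and WT 0 of number 4120) moved r to −0.88 for Ndufv1, −0.75 for Sdha, 0.82 for Ndufs3 and 0.81 for Ndufaf6, but to −0.59 for Cox7a2 and −0.61 for Atp5g3. Within cultures, after removal of each culture's mean, r was −0.91 for Ndufv1, −0.85 for Sdha, 0.83 for Ndufs3 and 0.88 for Ndufaf6. By r over the 18 libraries, the genes outside the set most like the mitochondrial sum were Nop14 (0.96), Pabpn1 (0.95), Wdr74, Zranb1 and Tatdn1 (0.94 each), and at the other end Vps37c (−0.97), Sgsm2 (−0.95), Dvl2, Cacfd1 (−0.94 each) and Mfsd11 (−0.93).

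**Figure D5:**
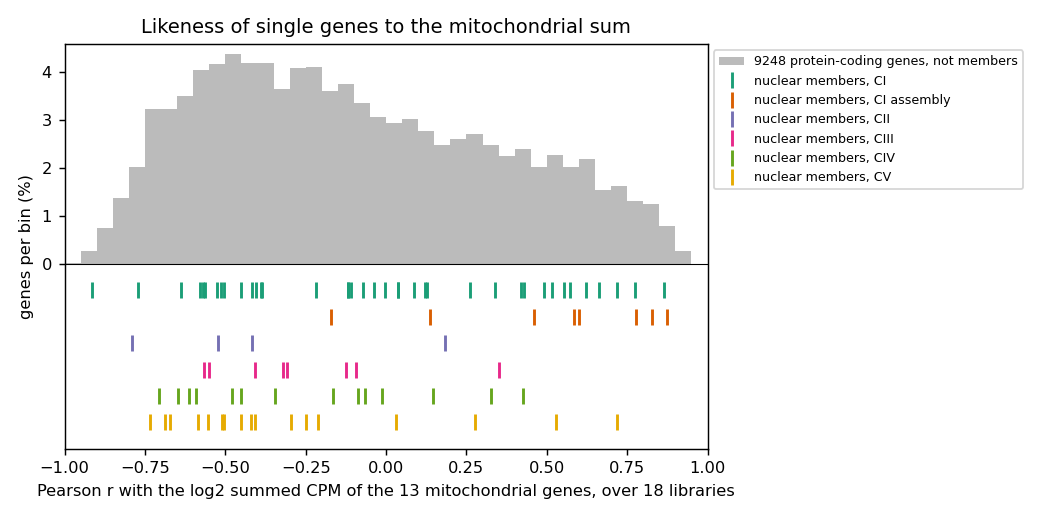
Pearson r of log2 CPM with the log2 summed CPM of the 13 mitochondrial genes over 18 libraries: grey bars, percent of 9248 other protein-coding genes per bin; ticks below, the 90 nuclear members by complex. The ticks spread over nearly the whole range, from −0.92 to 0.87, and their median of −0.15 is close to the −0.16 of the other genes.

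Nuclear members are known as targets of NRF1 and of GABP, an ETS-family factor, and their promoters were searched for the letters of both motifs. RefSeq promoter windows (GRCm38.p6, 250 bases before to 50 after the start) were found for 77 of the 95. The NRF1 motif is written in capitals in the Sdha run below and was searched with any base at the sixth position. It was present on either strand in 19 of 77 (24.7%). That compares with 9.95% of the 12397 other genes tested that had a window, and 5.19% of all 27025 genes with a window, members included. The letters CCGGAAG (ETS), on either strand, were present in 19 of 77 (24.7%), against 17.9% and 9.93%. Each motif was counted by itself, and a window can hold both. A match is a description of the sequence only.

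The promoters of Sdha and Ndufs3 are shown because these genes leaned in opposite ways against the mitochondrial sum and each holds a match close to the start. Ndufaf5, with r of 0.83, and Atp5g3, with r of −0.74, each had 1 NRF1 match and no ETS match, elsewhere in the window. The NRF1 letters were thus found on both sides, and a relation between motif and r was not tested. Each run is the 150 bases before the start, in the strand of the gene, with matches in capitals. They lie at chr13:74350241-74350390 (minus strand, Sdha) and chr2:90904722-90904871 (minus strand, Ndufs3).
Sdha: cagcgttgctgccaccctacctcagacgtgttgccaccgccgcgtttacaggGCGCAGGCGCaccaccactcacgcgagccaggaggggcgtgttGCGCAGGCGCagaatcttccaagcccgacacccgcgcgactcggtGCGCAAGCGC
Ndufs3: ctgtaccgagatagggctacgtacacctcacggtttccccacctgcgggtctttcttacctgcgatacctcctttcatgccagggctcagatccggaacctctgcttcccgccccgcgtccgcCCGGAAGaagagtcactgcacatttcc
The Sdha run holds 3 NRF1 matches and no ETS match, the Ndufs3 run 1 ETS match and no NRF1 match. Ndufv1, with the most negative r, had neither in the whole window. The same held for Ndufa4, Cox5a and Cox7a2l, with the smallest p between the genotypes over all levels. Ndufaf1, with the smallest p of any member at 60, had 1 ETS match and no NRF1 match in its window.

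Genes around the chain were followed as 6 lists, of which 187 genes were tested: other assembly factors, mitochondrial DNA maintenance and transcription, RNA processing, the mitochondrial ribosome, regulators, and the electron carriers. Between the genotypes edgeR called 0 of 187 at each level and over all levels. The mitochondrial ribosome, 78 genes, had medians of −0.038 at 0, 0.17 at 20 and 0.007 at 60. Mitochondrial DNA maintenance and transcription, 19 genes, had medians of −0.29, −0.28 and −0.41, with 6, 6 and 5 genes positive. The medians of all genes at these levels were 0.006, −0.020 and 0.023, and the list as a whole was not tested. In that list the smallest p at 0 and 20 were those of Tk2, with −0.50 and −0.52 (edgeR adjusted p of 0.296 and 0.466), and Tfb1m, which methylates mitochondrial ribosomal RNA, with −0.57 and −0.54 (edgeR adjusted p of 0.313 and 0.584). At 60 they were those of Polrmt, the mitochondrial RNA polymerase, at 13.6 ± 1.27 CPM in KO and 23.3 ± 8.05 in WT (−0.78, edgeR adjusted p = 0.24), and Tfb1m, at 3.80 ± 0.71 and 5.76 ± 0.23 (−0.60, edgeR adjusted p = 0.322; SD, n = 3).

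The genes with the smallest p in the remaining lists lay on both sides of 0. In RNA processing they were Fastkd2 (−0.61) and Rexo2 (0.56) at 0, Rexo2 (0.60) and Pnpt1 (−1.11) at 20, and Pnpt1 (−1.34) and Fastkd3 (−0.65) at 60. Pnpt1, of the mitochondrial RNA degradation machinery, had 7.87 ± 2.197 CPM in KO and 19.9 ± 10.5 in WT at 60. In the ribosome they were Mrpl24 (−0.99) and Mrps26 (−0.81) at 0, Mrps18c (0.77) and Mrpl40 (0.47) at 20, and Mrpl24 (−0.72) and Mrpl38 (−0.57) at 60. Among the assembly factors Cmc2, linked to complex IV, came first at each level with 0.92, 1.24 and 0.97, followed by Sdhaf3 (0.93), Dmac1 (0.67) and Ecsit (−0.57). Among the carriers they were Coq7 (−0.84) and Coq5 (−0.44) at 0, Coq7 (−0.50) and Coq10b (−0.47) at 20, and Coq10b (0.75) and Coq8a (−0.52) at 60. Among the regulators they were Yy1 (0.36) and Gabpb1 (−0.35) at 0, the same pair (0.25 and −0.27) at 20, and Esrra (−0.48) and Nrf1 (0.25) at 60. The edgeR adjusted p of these genes was 0.209 or higher.

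Calls with level were made in 4 of these lists. Coq10b, a coenzyme Q binding protein, rose in WT at 20, from 8.33 ± 1.27 to 27.1 ± 3.16 CPM (log2 fold change 1.70, SE 0.262, edgeR adjusted p = 0.00313), the only 1 of 187 called there (0.535%, against the 0.6% of all genes). In KO at 60, 6 of 187 were called (3.21%, against the 2.54%). Coq10b rose there from 10.7 ± 3.15 to 23.1 ± 3.58 CPM (1.11, edgeR adjusted p = 0.0283), Cycs, cytochrome c itself, from 9.98 ± 1.63 to 21.3 ± 3.08 (1.10, edgeR adjusted p = 0.0451), Tk2, a mitochondrial thymidine kinase, from 135 ± 21.8 to 219 ± 26.6 (0.70, edgeR adjusted p = 0.0331) and Elac2, which trims tRNA ends, from 39.3 ± 4.14 to 68.6 ± 7.15 (0.80, edgeR adjusted p = 0.0206). Coq8a, of coenzyme Q synthesis, fell from 37.7 ± 1.86 to 17.4 ± 3.78 (−1.11, edgeR adjusted p = 0.0124), and Dmac2, linked to assembly of the membrane arm of complex I, from 43.4 ± 5.98 to 26.7 ± 1.84 (−0.70, edgeR adjusted p = 0.0484). The rise of Cycs and the fall of Dmac2 lost their calls whichever of the 6 libraries was left out, with adjusted p up to 0.185 and 0.217. The calls of the other 4 were lost with 3 or 4 of the 6 libraries left out in turn, with adjusted p up to 0.172. None of the 6 was called in KO at 60 on library sizes alone or by limma on TPM, and limma did not call Coq10b in WT at 20. In WT at 60 Cycs had 1.08 (edgeR adjusted p = 0.155) and Dmac2 −0.72 (edgeR adjusted p = 0.145), and a difference of the response between the genotypes was not called for any of the 187.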

How the data were processed

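For 45777 genes the authors deposited a read count, an FPKM and a TPM per library, per the file headers. Per the submitters' processing notes the tools include HISAT2 2.1.0 and StringTie 2.1.3b, besides FastQC 0.11.7 and bcl2fastq 2.20.0, and the build is mm10. Deposited counts, which the authors did not normalize, were tested, the deposited TPM were used for levels per length and in limma, and the deposited FPKM were not used. All 54 value columns were mapped to libraries. Genes were kept by filterByExpr (17159, or 18280 on cultures), scaled with TMM factors and fitted with edgeR 4.0.16 (R 4.3.3) as 1 mean per group over 18 libraries; the comparison over all levels used counts summed per genotype and number. Calls needed a Benjamini-Hochberg adjusted p under 0.05 over all genes. Values in single numbers were compared with an exact permutation test. Log2 CPM used a prior count of 2.

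The members and lists were chosen with earlier results of these data known. Named genes are all mitochondrial members, the 3 nuclear members with the smallest p per comparison, the 2 highest and the lowest tested per complex, known isoforms, and, of other lists, called genes or the 2 smallest p. One gene that this rule names is not reported here. Alternatives were DESeq2 1.42.0, limma 3.58.1 on log2(TPM + 1) with a mean TPM of at least 1, other scalings, no filter, a replicate block, a fit on the compared groups alone, 18 libraries as separate samples, and each library left out. Matplotlib 3.10.9 drew the figures. Deviations from the group means correlated above 0.1 in all numbers in 4 comparisons: between the genotypes at 60 (r of 0.43 to 0.53), and against level 0 for WT at 20 (r of 0.62 to 0.76), KO at 20 (r of 0.40 to 0.58) and KO at 60 (r of 0.33 to 0.67). Pairing by number was taken to hold there; only the fit with a replicate block uses it. On simulated data for KO against WT at 0 (17159 genes) the fit recovered 20% of 70 genes set at a 2-fold change. It recovered 83.6% of 73 set at 4-fold, and 98.2% of 57 set at 8-fold.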

Additional observations from a re-analysis of the deposited data

How the results depend on the processing

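The fit with the replicate number as a block called 1 member in KO at 60 against 0, where none was called without it, and changed no other count of members called; over all levels DESeq2 called 3 and the 18-library contrast 9. The nuclear median in KO at 60 was 0.0039 with scaling by library size alone and −0.076 by limma, and that in KO against WT at 20 was 0.55 by limma. On library sizes alone the all-gene median stood at 0.16 and 0.14 for KO against WT at 0 and 20, 0.11 over all levels, −0.22 for KO at 60 and −0.10 for WT at 60, and with limma at 0.28, 0.20 and 0.18 for the first 3.

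With each library left out in turn, mitochondrial medians ran from −2.33 to −0.76 (KO against WT at 20), −2.70 to 0.10 (at 60), −2.03 to −0.62 (all levels), −1.69 to −0.037 (KO 20 against 0), −1.70 to 1.33 (KO 60), −1.36 to 0.63 (WT 20), −0.88 to 0.97 (WT 60), −1.78 to 0.20 (difference in response at 20) and −1.76 to 1.23 (difference in response at 60). Nuclear medians ran from −0.058 to 0.42 (KO against WT at 0), 0.19 to 0.44 (at 20), 0.073 to 0.38 (at 60), 0.054 to 0.29 (KO 20), −0.073 to 0.40 (WT 60), 0.074 to 0.43 (all levels), −0.22 to 0.26 (WT 20), −0.069 to 0.36 and −0.19 to 0.25 (differences in response at 20 and 60). The log2 ratio of KO against WT ran from −1.97 to −0.53 (at 0), −2.31 to −0.89 (at 20) and −2.51 to −0.49 (at 60), and against level 0 from −1.60 to −0.22 (KO 20), −1.30 to 0.23 (WT 20), −1.08 to 0.51 (WT 60) and −1.46 to 0.40 (KO 60). The positive mitochondrial and ratio ends were those with WT 0 of number 4120 or KO 0 of number 414 left out, or, for KO against WT at 60, WT 60 of number 414. The cause was not tested.

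Single mitochondrial genes that changed sign in KO against WT at 0 were COX1 (−2.04 to 0.093), COX2 (−1.95 to 0.042), ND5 (−2.07 to 0.026) and ATP8 (−2.07 to 0.15). At 60 they were COX1 (−2.70 to 0.68), COX2 (−2.39 to 0.48), COX3 (−2.47 to 0.086), CYTB (−2.68 to 0.17), ND1 (−2.75 to 0.076), ND4 (−2.65 to 0.10), ND5 (−2.83 to 0.40), ND6 (−2.81 to 0.21) and ATP8 (−2.67 to 0.12). With 3 libraries a group, the median SE of a mitochondrial log2 fold change between the genotypes at 0 was 0.98 against 0.28 for nuclear members, so a 2-fold difference of a mitochondrial gene is about the size of its error.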
